A study of Mus musculus with 6 samples.

Results

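The interleukin-1 and interleukin-18 family is a set of cytokines, receptors, inhibitors and an activating protease of innate immunity. Its 10 members here were taken by gene name from the deposited table of 23934 genes, and all 10 were present: the cytokine genes Il1a, Il1b and Il18, the antagonist gene Il1rn, the receptor genes Il1r1, Il1r2, Il1rap and Il18r1, the inhibitor gene Il18bp and the protease gene Casp1. The data are RNA sequencing libraries of sorted skin cells from mice at day 50, with 3 Zfp750 knockout and 3 control samples. Knockout samples are labelled ZNF750 fl/fl, with floxed copies of Zfp750, the mouse gene for the epidermal transcription factor ZNF750. They carry Lrig1-CreER (1 sample) or Lrig1-CreERT2 (2 samples), labelled +/-, and Rosa26 -/-. Control samples are labelled ZNF750 wt/fl (2 samples) or wt/wt (1 sample), carry the same kind of Lrig1 driver, labelled +/- (Lrig1-CreER in 1 and Lrig1-CreERT2 in 2), and are Rosa26 -/- in 2 and +/- in 1. All samples, controls included, received 4-hydroxytamoxifen on days 4 to 7 or 5 to 8 of age, which activates the recombinase. Lrig1, whose promoter drives the recombinase, is known as a gene of the upper hair follicle. Its transcript was at 1577 to 2089 in the knockout libraries and 585 to 2082 in the control libraries, and which cells lost Zfp750 was not tested. The cells are described as sorted from tdTomato-expressing mice, but Rosa26, a usual site of that reporter, is labelled -/- in 5 of the 6 samples, so how they carried it is not clear from the labels. The comparison addresses how family transcripts differed between the genotypes in mice that the series title describes as having psoriasiform dermatitis.

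Interleukin-1 alpha and interleukin-1 beta bind the same receptor, the Il1r1 product, which signals once it pairs with the accessory protein made from Il1rap. The Il1rn product occupies that receptor without activating it, and the Il1r2 product binds the cytokines as a decoy that lacks the signalling domain. Caspase-1, the Casp1 product, cleaves the precursors of interleukin-1 beta and interleukin-18 in the inflammasome. Interleukin-18 acts through the Il18r1 product and is neutralised by the secreted binding protein made from Il18bp. In skin, keratinocytes are known to store interleukin-1 alpha and interleukin-18, while interleukin-1 beta comes largely from myeloid cells.

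The libraries, named by the last part of their columns (S5 to S7 for knockout, S2 to S4 for control), held 15310161 to 20705441 estimated reads each. Values are the authors' normalized values, which are estimated reads divided by 1 size factor per library. A floor of 3 reads corresponds to 2.39 to 3.81 of these units. Zfp750 was at 4.90, 1.82 and 7.16 in knockout S5, S6 and S7, against 41.9, 3.75 and 314 in control S2, S3 and S4, so it does not separate control S3 from the knockouts. The sorted material was rich in fibroblast transcripts: Col1a1 was at 333927 to 407741 in the knockouts and 1430000 to 4570000 in the controls, far above the basal keratinocyte transcript Krt5 (885 to 8559 in the knockouts and 62.5 to 11805 in the controls). The 8 keratinocyte markers were all detected in every library. Their summed level was 2604 to 20860 in the knockouts and 570 to 23440 in the controls, lowest in control S3. Control S4 stood apart from the other controls in its leukocyte transcripts: Ptprc, the pan-leukocyte phosphatase, was at 133, 679 and 1158 in knockout S5, S6 and S7, against 36.9, 36.2 and 579 in control S2, S3 and S4. The female transcript Xist was high in knockout S6 and control S3 and low in the other 4 libraries, so each group held 1 such library. In bulk libraries such as these, fewer cells of a type and less RNA per cell cannot be told apart.

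Of the 10 members, 9 passed the filter on low values (1 unit per 1000000 of a library's total in at least 3 of the 6 libraries) and 4 of these 9 passed the test, 1 higher and 3 lower in the knockout. Il1r1 rose, and Il1r2, Il18 and Casp1 fell. Over all 15935 genes tested by limma on log2 values, 6.71% passed at a Benjamini-Hochberg adjusted p under 0.05, with 4.12% higher and 2.59% lower. The groups did not overlap for 5 of the 9 members (the 4 called genes and Il1b), of which 2 were higher and 3 lower. Over all tested genes 28.8% did not overlap, 15.7% being higher and 13.1% lower. The members' median log2 fold change was -0.11, beside 0.014 over all tested genes, so the family had no common direction. The number of genes called over the whole table was 1070, and it fell to 342, 503, 337 and 596 without knockout S6, knockout S7, control S2 and control S3.

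**Figure D1:**
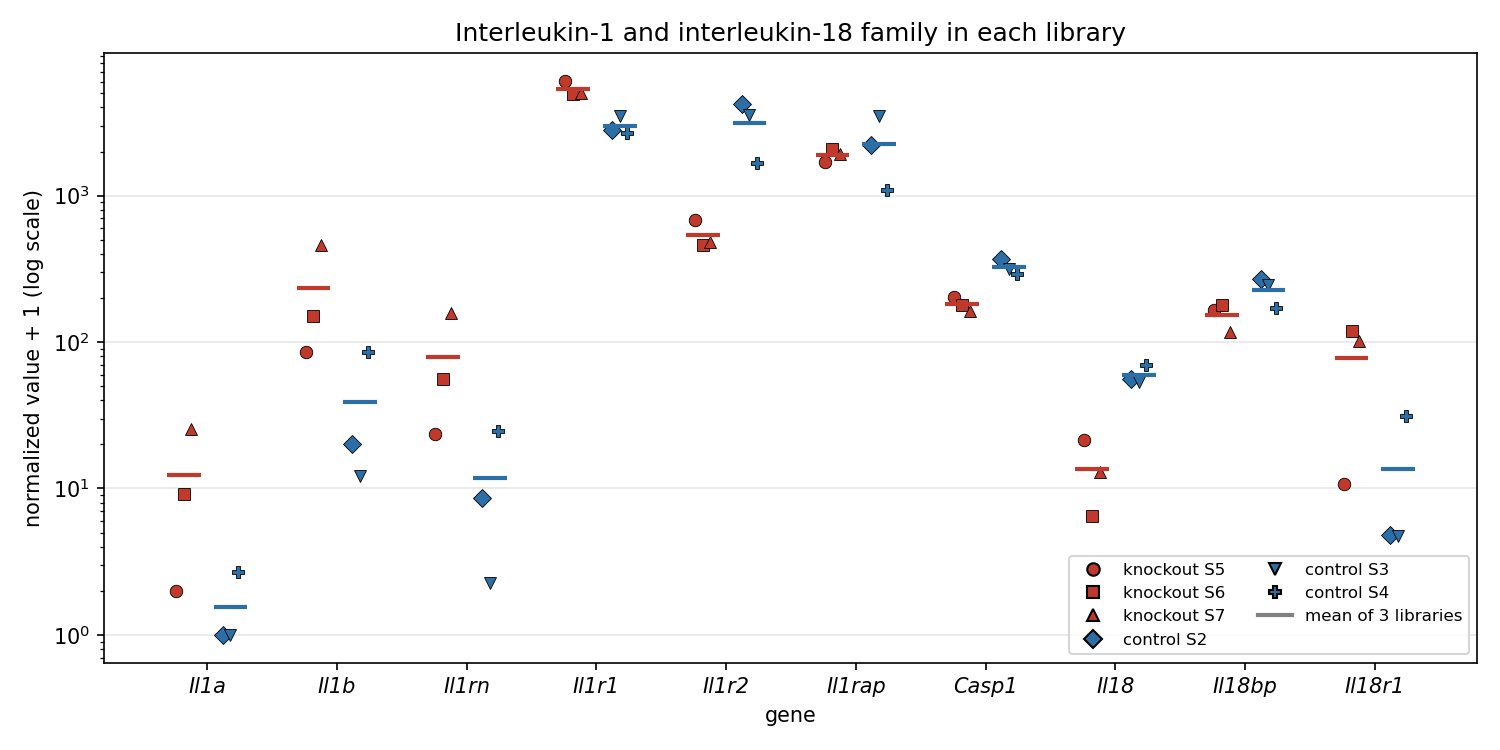
Normalized values plus 1 on a log axis for each of the 10 genes, with 1 point per library (red knockout, blue control) and a bar at the mean of 3 libraries. The groups separate for Il1r1, Il1r2, Casp1 and Il18, and for Il1b by the narrow gap between knockout S5 (84.3) and control S4 (84.1).

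**Figure D2:**
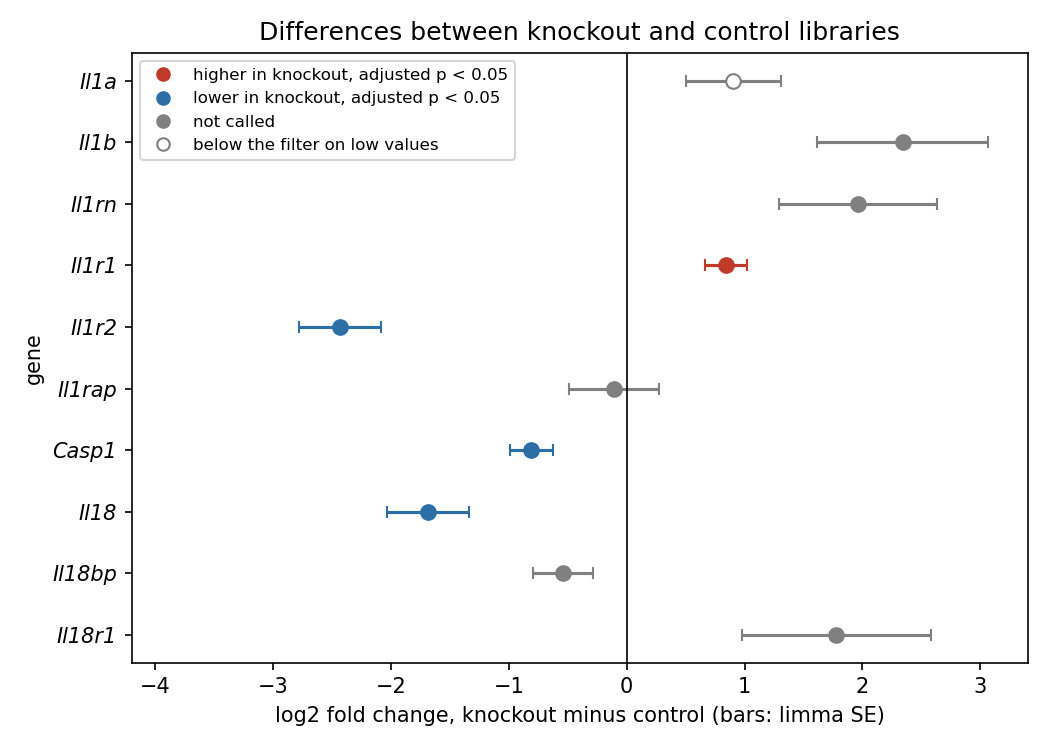
The log2 fold change of each gene, knockout minus control, on the log2(value + 9.15) scale, with limma standard errors as bars; colours mark genes with an adjusted p under 0.05. Il1r1 lies to the right of 0 among the called genes, and Il1r2, Casp1 and Il18 lie to the left.

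The 2 interleukin-1 receptors moved in opposite directions. The decoy receptor gene Il1r2 (ENSMUSG00000026073, chromosome 1, 40113239 to 40164392 on the plus strand in the table's own coordinates, whose build the file does not name) was at 679, 458 and 481 in knockout S5, S6 and S7, against 4195, 3542 and 1658 in control S2, S3 and S4. Every knockout library lay below every control library, and the lowest control, S4, was still well above the highest knockout, S5. Il1r2 averaged 539 ± 121 in the knockouts and 3132 ± 1317 in the controls (SD, n = 3 each), which is 5.81-fold lower in the knockout. Its log2 fold change was -2.44 ± 0.35 (SE; limma adjusted p = 0.00923). The call was lost without knockout S6, at an adjusted p of 0.0511.

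The signalling receptor gene Il1r1 (ENSMUSG00000026072, chromosome 1, 40264240 to 40356418 on the plus strand in the table's own coordinates) was at 6095, 4946 and 5030 in knockout S5, S6 and S7, against 2801, 3481 and 2681 in control S2, S3 and S4. Libraries within a group were close, spanning 1.23-fold among the knockouts and 1.30-fold among the controls, and the groups did not overlap. Il1r1 averaged 5357 ± 641 in the knockouts and 2988 ± 431 in the controls (SD, n = 3 each), 1.79-fold higher in the knockout. The log2 fold change was 0.84 ± 0.18 (SE; limma adjusted p = 0.0349). The call was lost without knockout S5, S6 or S7 (limma adjusted p = 0.0860, 0.0993 and 0.0882) and without control S2 or S4 (0.145 and 0.0597), while the log2 fold change stayed at 0.75 to 0.96 over all 6 of these fits. The direction against fibroblast transcripts depended on the transcript chosen. Of the 6 fibroblast markers, Pdgfra, a growth factor receptor gene, rose (log2 fold change 1.24, limma adjusted p = 0.0165). The matrix genes Col1a1, Col1a2, Col3a1, Dcn and Lum had log2 fold changes of -2.67, -2.71, -1.68, -0.99 and -0.96 and did not pass the test. As ratios, computed after the values were seen, Il1r1 was higher in every knockout library than in every control library against those 5 markers, and lower against Pdgfra. Il1r2 was lower without overlap against 4 of the 6 markers and overlapped against 2. Per 100 units of Lum it was at 1.55 to 2.25 in the knockouts and 3.75 to 7.56 in the controls, while per 100 units of Col1a1 it was at 0.120 to 0.166 in the knockouts and 0.0775 to 0.195 in the controls. Per 100 units of the keratin transcript Krt10, Il1r2 also overlapped, at 844 to 2183 in the knockouts and 829 to 3085 in the controls.

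The ratio of decoy to signalling receptor, which does not depend on library scaling, separated the groups clearly. Il1r2 divided by Il1r1 was 0.111, 0.0925 and 0.0957 in knockout S5, S6 and S7, against 1.498, 1.02 and 0.619 in control S2, S3 and S4. The 3 knockout ratios were nearly alike, and each control ratio was several times larger. The mean log2 ratio, with 1 unit added to each value, was -3.33 ± 0.14 in the knockouts and -0.03 ± 0.64 in the controls (SD, n = 3 each), a difference of -3.30. The exact 2-sided permutation p was 0.1, the smallest that 3 against 3 libraries allow, and 0.15 after adjustment over the 3 balances examined. Scaled to exon length (normalized units per kilobase of exon), Il1r2 averaged 283 and Il1r1 842 in the knockouts, while Il1r2 averaged 1641 and Il1r1 470 in the controls. The decoy was thus the lower of the pair in all 3 knockout libraries and the higher in all 3 control libraries on this scale. The exon lengths count every annotated isoform, and without this scaling Il1r2 was below Il1r1 in control S4 (ratio 0.619).

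**Figure D3:**
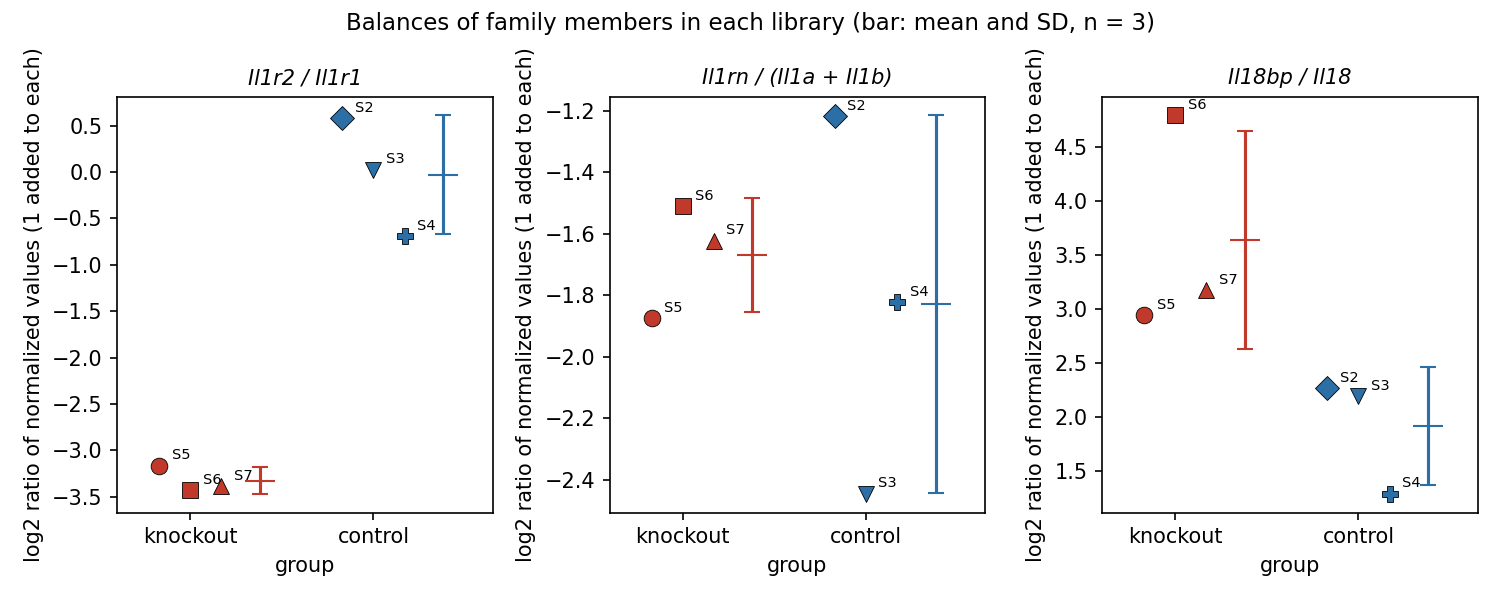
Log2 ratios of normalized values in each library, knockout left and control right, with the mean and SD of 3 libraries beside the points. The ratio of Il1r2 to Il1r1 lies near -3.33 in the knockouts and near -0.03 in the controls, the ratio of Il1rn to its agonists overlaps between groups, and the ratio of Il18bp to Il18 is higher in all 3 knockout libraries.

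Markers of other cell types moved in several ways beside Il1r2. In control S3, where Il1r2 was at 3542, Krt5 was at 62.5 and Krt10 at 136, against 2503 and 136 in control S2. Neutrophils are known to carry the decoy receptor. The summed level of the 6 measured neutrophil markers was 1032 to 2518 in the knockouts and 18.7 to 38.7 in the controls, with S100a9 at 0 in all 3 controls, the opposite order from Il1r2. Most of that sum was Mmp9, at 952, 1007 and 1785 in knockout S5, S6 and S7, and the other 5 markers summed to 79.4, 142 and 733 there, against 8.90, 3.75 and 20.2 in control S2, S3 and S4. The summed level of the 6 fibroblast markers, mostly collagens, was 905440 to 1191530 in the knockouts and 2971210 to 8902030 in the controls, although Pdgfra went the other way. The part of keratinocytes, neutrophils or fibroblasts in the Il1r2 difference was not tested.

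The accessory receptor gene Il1rap (chromosome 16) was at 1689, 2086 and 1912 in knockout S5, S6 and S7, against 2215, 3489 and 1088 in control S2, S3 and S4. The knockout values lay inside the control range. Its log2 fold change was -0.11 ± 0.38 (SE; limma adjusted p = 0.897), and turned to 0.21 (adjusted p = 0.633) when libraries were rescaled to a common total and to 0.28 (adjusted p = 0.657) without control S3. No difference in Il1rap was detectable against this spread.

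The RefSeq promoters (GRCm38.p6, 250 bases before to 50 after each gene start) of the 4 members that passed the test are shown so that their sequence can be read beside their levels. All 10 members matched a RefSeq entry. The windows were searched on both strands for the NF-kappa B consensus, the AP-1 site TGANTCA, the C/EBP site TTGCNNAA, the E-box CACGTG and the TATA box TATAAA, and no match overlapped another. Of 32851 promoters of this length, 8.46% held the NF-kappa B consensus, 7.81% the AP-1 site, 10.8% the C/EBP site, 7.15% the E-box and 13.6% the TATA box. Capitals mark the matches: 2 E-boxes in Il1r2 (chr1:40085843-40086142, plus strand), a C/EBP site in the upstream Il1r1 window (chr1:40224830-40225129, plus strand), an NF-kappa B match on the reverse strand in the downstream Il1r1 window (chr1:40266336-40266635, plus strand), a reverse-strand TATA box match in Il18 (chr9:50554450-50554749, plus strand) and an E-box in Casp1 (chr9:5298267-5298566, plus strand).
Il1r2: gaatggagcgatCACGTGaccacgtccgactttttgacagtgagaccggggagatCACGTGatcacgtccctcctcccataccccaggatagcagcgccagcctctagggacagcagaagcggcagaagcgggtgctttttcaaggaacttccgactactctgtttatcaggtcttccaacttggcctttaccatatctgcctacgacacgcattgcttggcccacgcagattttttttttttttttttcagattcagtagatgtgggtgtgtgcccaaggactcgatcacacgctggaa
Il1r1 upstream: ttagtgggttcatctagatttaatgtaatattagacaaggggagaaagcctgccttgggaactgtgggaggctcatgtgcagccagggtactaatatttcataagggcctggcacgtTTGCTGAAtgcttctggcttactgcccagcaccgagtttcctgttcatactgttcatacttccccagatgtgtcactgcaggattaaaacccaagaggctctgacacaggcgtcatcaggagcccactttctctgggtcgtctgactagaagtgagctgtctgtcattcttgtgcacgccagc
Il1r1 downstream: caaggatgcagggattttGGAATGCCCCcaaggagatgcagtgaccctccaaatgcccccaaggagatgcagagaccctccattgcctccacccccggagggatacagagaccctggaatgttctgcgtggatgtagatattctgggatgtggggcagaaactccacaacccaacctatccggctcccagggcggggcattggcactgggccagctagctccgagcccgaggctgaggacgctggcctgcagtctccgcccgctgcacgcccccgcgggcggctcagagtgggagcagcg
Il18: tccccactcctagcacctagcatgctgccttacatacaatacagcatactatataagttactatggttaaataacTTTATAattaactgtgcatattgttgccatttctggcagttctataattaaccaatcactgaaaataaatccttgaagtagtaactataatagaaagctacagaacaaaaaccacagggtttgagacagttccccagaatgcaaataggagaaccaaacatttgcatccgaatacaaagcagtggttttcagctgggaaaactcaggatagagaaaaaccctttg
Casp1: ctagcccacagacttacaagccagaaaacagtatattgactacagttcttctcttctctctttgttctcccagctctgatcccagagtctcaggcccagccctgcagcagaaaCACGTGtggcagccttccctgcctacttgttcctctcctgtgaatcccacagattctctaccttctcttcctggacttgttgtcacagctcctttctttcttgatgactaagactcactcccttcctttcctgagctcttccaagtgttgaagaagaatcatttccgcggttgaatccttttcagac
Counting the gene start as base 1 and the bases before it as negative, the Il1r2 E-boxes began at -238 and -195 and the Casp1 E-box at -137. These matches describe letters in a window and are not evidence of binding.

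Il1r2, Il1r1 and Il18r1 are neighbours on chromosome 1, in a cluster that also holds the interleukin-36 receptor gene Il1rl2, the interleukin-33 receptor gene Il1rl1 and the interleukin-18 accessory receptor gene Il18rap. The stretch from the start of Il1r2 to the end of Il18rap spans 478 kb and holds 10 genes of the table, 4 of them predicted genes. The differences did not run in 1 direction along it. Il1r2 at 1 end fell, Il1r1 (start 151 kb from that of Il1r2) rose, Il1rl2 (251 kb) did not pass the test at a log2 fold change of -0.43 ± 0.22 (SE; limma adjusted p = 0.290), and Il1rl1 (355 kb) rose. Il1rl1 was at 149, 1055 and 863 in knockout S5, S6 and S7, against 22.9, 9.99 and 42.1 in control S2, S3 and S4 (log2 fold change 4.06 ± 0.73 SE; limma adjusted p = 0.0207). Mast cells are known to carry the Il1rl1 product. The summed mast cell markers were at 1409, 4507 and 1610 in knockout S5, S6 and S7 and at 44.5, 55.0 and 614 in control S2, S3 and S4, with Fcer1a and Tpsab1 at 0 in all controls. Their part in the Il1rl1 difference was not tested. Within Il1r2 lies Gm16894, annotated on the opposite strand, at 2.39 to 7.29 in the knockouts and 5.08 to 18.7 in the controls, small beside Il1r2. Gm37347 within Il1r2 and Gm38070 within Il1r1 lie on the same strand as their hosts, and neither passed the test. Gm37347 was at 4.90 to 31.9 in the knockouts and 15.0 to 24.4 in the controls, and Gm38070 at 65.2 to 186 in the knockouts and 78.7 to 215 in the controls. No source used here says if reads were assigned by strand, so reads of these pairs may be split between them.

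**Figure D4:**
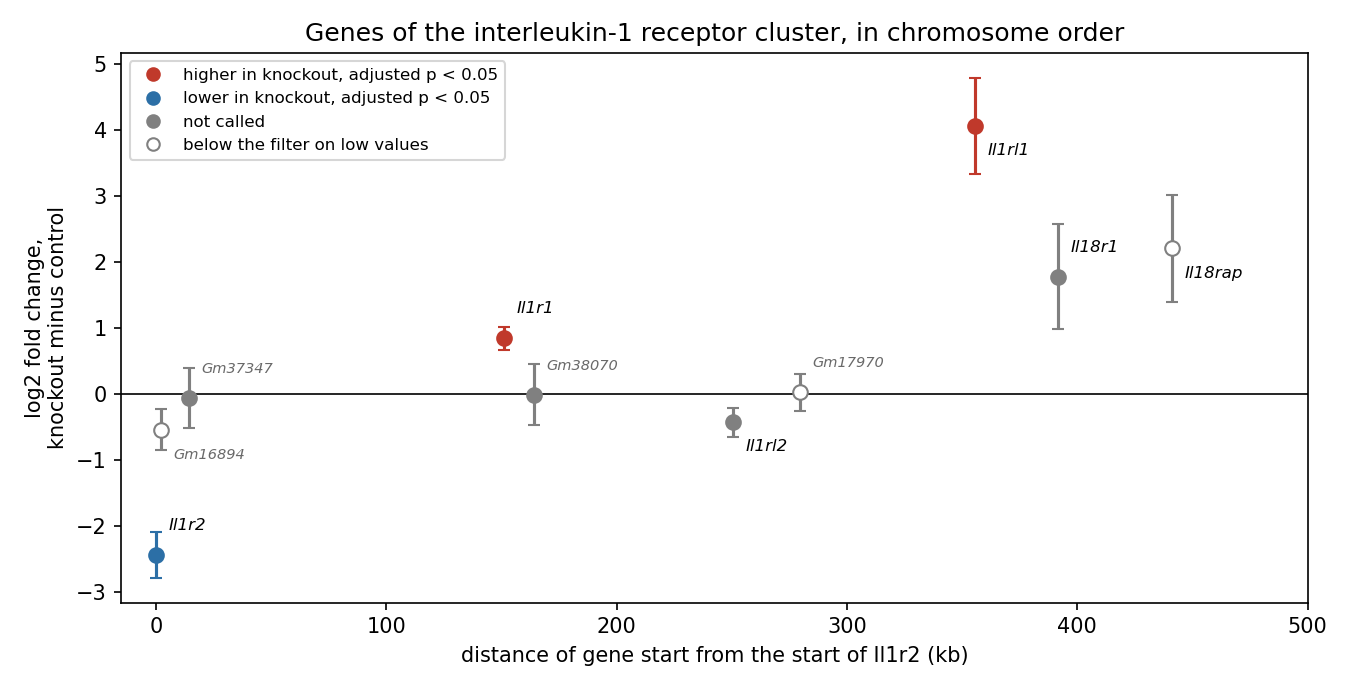
Log2 fold change (knockout minus control, bars limma SE) of every table gene from Il1r2 to Il18rap, by distance of the gene start from that of Il1r2 in kb. Il1r2 lies at -2.44, its neighbour Il1r1 at 0.84 and Il1rl1 at 4.06, with Il1rl2 at -0.43 between the last pair.

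The genes for the interleukin-1 cytokines and their antagonist were higher on average in the knockout, but none passed the test. Il1b (ENSMUSG00000027398, chromosome 2) was at 84.3, 149 and 460 in knockout S5, S6 and S7, against 19.1, 11.2 and 84.1 in control S2, S3 and S4. The groups were separated only by the narrow gap of knockout S5 over control S4. Knockout S7 was far above the other libraries. Il1b had a log2 fold change of 2.34 ± 0.73 (SE; limma adjusted p = 0.107). Without control S4 the log2 fold change was 2.99 and passed the test (limma adjusted p = 0.0377).

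Il1rn, the receptor antagonist gene (ENSMUSG00000026981, chromosome 2), was at 22.6, 54.7 and 157 in knockout S5, S6 and S7, against 7.62, 1.25 and 23.5 in control S2, S3 and S4. Knockout S5 lay just below control S4, so the groups overlapped. The log2 fold change was 1.96 ± 0.67 (SE; limma adjusted p = 0.134). Il1a (ENSMUSG00000027399, chromosome 2) was near the detection floor and did not pass the filter. It had 1, 9 and 31 reads in knockout S5, S6 and S7, against 0, 0 and 2 reads in control S2, S3 and S4. The single read of knockout S5 lay within the control range. Summed over libraries and scaled by size factor, the knockout to control ratio was 16.9, with an exact 95% interval of 4.38 to 144 that covers counting error only. Knockout S7 gave 31 of the 41 knockout reads. With every gene of the table in the limma fit, its log2 fold change was 0.90 ± 0.40 (SE; adjusted p = 0.260).

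Il1rn relative to its agonists did not separate the groups. Il1rn divided by the sum of Il1a and Il1b was 0.264, 0.347 and 0.323 in knockout S5, S6 and S7, against 0.400, 0.111 and 0.275 in control S2, S3 and S4. The knockout ratios lay inside the control range, with a difference in mean log2 ratio of 0.16 (exact 2-sided permutation p = 0.8 over 3 against 3 libraries; adjusted over the 3 balances 0.8). The sign turned with 5 units added in place of 1 (-0.26) and without control S3 (-0.15).

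Il1b and Il1rn were highest in knockout S7, the library with the most Ptprc. Per 100 units of Ptprc, a denominator chosen after the values were seen, Il1b was at 63.2, 22.0 and 39.7 in knockout S5, S6 and S7, against 51.7, 31.0 and 14.5 in control S2, S3 and S4. On this scale the knockout and control values overlapped. Il1rn was at 8.05 to 16.9 per 100 units of Ptprc in the knockouts and 3.45 to 20.7 in the controls, also overlapping. Il1a did not overlap on this scale, at 0.735 to 2.13 in the knockouts and 0 to 0.291 in the controls, but rests on few reads. The 3 pan-leukocyte markers summed to 512 to 4417 in the knockouts and 79.9 to 1204 in the controls, none at 0 in any library. The 8 macrophage and monocyte markers, likewise all detected in every library, summed to 1483 to 11811 in the knockouts and 1243 to 2120 in the controls. Their sum was highest in knockout S7, the library with the highest Il1b, Il1rn and Il1a. Most of the sums in control S2 and S3 was Csf1r, at 864 and 1096 there, and it had a log2 fold change of -0.78, unlike the other markers of this list, which were positive. The part of leukocyte content in these differences was not tested.

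**Figure D5:**
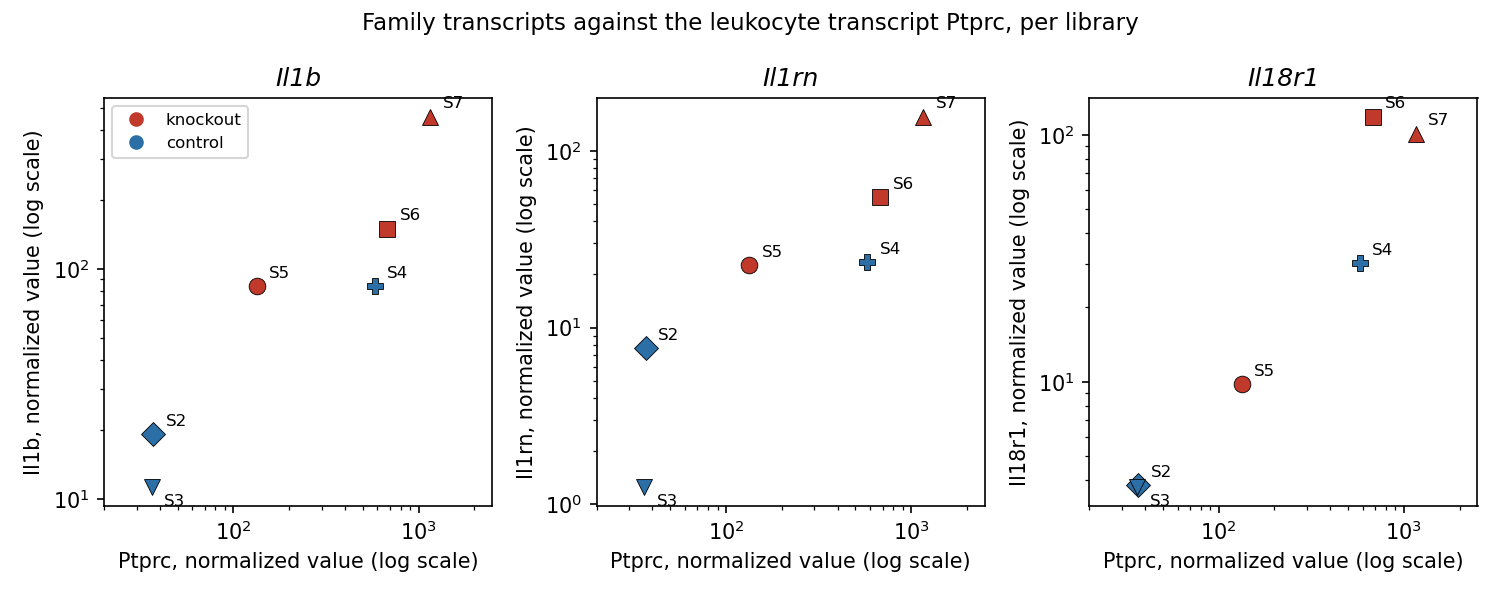
Normalized values of Il1b, Il1rn and Il18r1 against Ptprc in each library, both axes logarithmic, red for knockout and blue for control. Control S4, with Ptprc at 579, lies among the knockouts in Ptprc, with Il1b at 84.1, Il1rn at 23.5 and Il18r1 at 30.3, and control S2 and S3 lie at the low end.

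In the interleukin-18 arm the cytokine gene was lower, as was Casp1, whose product also cleaves the precursor of interleukin-1 beta. The receptor genes Il18r1 and Il18rap were higher on average in the knockout, with groups that overlapped. Il18 (ENSMUSG00000039217, chromosome 9, 50466127 to 50493141 on the plus strand in the table's own coordinates) was at 20.6, 5.47 and 11.9 in knockout S5, S6 and S7, against 54.6, 52.5 and 69.0 in control S2, S3 and S4. The groups did not overlap, and the controls were close to each other. These values rest on 21, 6 and 15 reads in the knockouts and 43, 42 and 82 reads in the controls. Il18 averaged 12.7 ± 7.59 in the knockouts and 58.7 ± 8.97 in the controls (SD, n = 3 each), 4.63-fold lower in the knockout. Its log2 fold change was -1.69 ± 0.35 (SE; limma adjusted p = 0.0320), on a scale that understates changes of low genes. The call was lost without knockout S6 or S7 (limma adjusted p = 0.101 and 0.0845), without control S2, S3 or S4 (0.113, 0.0731 and 0.0632) and with libraries rescaled to a common total (0.0662).

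Keratinocytes are a known source of interleukin-18 in skin. Per 100 units of the suprabasal keratin transcript Krt10, Il18 was at 25.6, 26.1 and 37.5 in knockout S5, S6 and S7, against 40.2, 38.5 and 34.5 in control S2, S3 and S4. On this scale, chosen after the values were seen, the groups overlapped. Against the 6 fibroblast markers, Il18 overlapped for 4 and was lower without overlap for 2 (Pdgfra and Dcn). Krt10 was itself at 80.4, 21.0 and 31.8 in knockout S5, S6 and S7, against 136, 136 and 200 in control S2, S3 and S4 (log2 fold change -1.77, limma adjusted p = 0.0496). No other keratinocyte marker of the list passed the test. Krt14, Cdh1, Krt5 and Dsg3 had log2 fold changes of 2.01, 0.83, 0.69 and 0.25, and Krt1, Krt15 and Trp63 of -0.10, -0.46 and -0.78. Per 100 units of Krt5, Il18 was at 0.139 to 1.77 in the knockouts and 0.584 to 84.0 in the controls, also overlapping. The part of Krt10 or of keratinocytes in the Il18 difference was not tested.

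Casp1 (ENSMUSG00000025888, chromosome 9, 5298508 to 5307291 on the plus strand in the table's own coordinates) was at 203, 178 and 162 in knockout S5, S6 and S7, against 366, 314 and 292 in control S2, S3 and S4. Both groups were tight, spanning 1.26-fold among the knockouts and 1.25-fold among the controls, and they did not overlap. Casp1 averaged 181 ± 20.9 in the knockouts and 324 ± 38.1 in the controls (SD, n = 3 each), 1.79-fold lower in the knockout. The log2 fold change was -0.81 ± 0.18 (SE; limma adjusted p = 0.0439). The call was lost whichever library was left out, at limma adjusted p-values of 0.0666, 0.136 and 0.113 without knockout S5, S6 and S7 and of 0.170, 0.109 and 0.0509 without control S2, S3 and S4. Rescaling to a common total, which moved the median gene by 0.31 on the log2 scale, left Casp1 at -0.50 (adjusted p = 0.253). Per 100 units of Krt10, Casp1 was at 252 to 848 in the knockouts and 146 to 269 in the controls, overlapping and mostly higher in the knockout. Krt10 itself was lower in the knockout (log2 fold change -1.77, limma adjusted p = 0.0496). Per 100 units of Krt5, Casp1 was at 1.89 to 20.1 in the knockouts and 2.47 to 502 in the controls, overlapping. Against the 6 fibroblast markers it was lower without overlap for Pdgfra, higher without overlap for the 3 collagens and overlapping for Dcn and Lum. Casp1 is known as a myeloid transcript. The macrophage and monocyte markers summed to 1703, 1483 and 11811 in knockout S5, S6 and S7, against 1243, 1552 and 2120 in control S2, S3 and S4. Most of the sums in control S2 and S3 was Csf1r, at 864 and 1096 there (log2 fold change -0.78, limma adjusted p = 0.604). The other markers of this list had positive log2 fold changes, from 0.39 for Cd68 to 3.11 for Mrc1. Of these only Cd14 passed the test (2.02, limma adjusted p = 0.0450). The part of macrophages and monocytes in the Casp1 difference was not tested.

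Il18bp, the binding protein gene (chromosome 7), was at 165, 178 and 115 in knockout S5, S6 and S7, against 267, 244 and 170 in control S2, S3 and S4. Knockout S6 lay above control S4, and the log2 fold change of -0.54 ± 0.25 (SE) did not pass the test (limma adjusted p = 0.253). Il18bp divided by Il18 was 8.00, 32.5 and 9.67 in knockout S5, S6 and S7, against 4.88, 4.64 and 2.46 in control S2, S3 and S4. All 3 knockout ratios exceeded all control ratios, with a difference in mean log2 ratio of 1.72 (exact 2-sided permutation p = 0.1, the smallest possible; adjusted over the 3 balances 0.15). The highest ratio, in knockout S6, rests on 6 Il18 reads, and the difference was 1.14 without that library.

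The interleukin-18 receptor gene Il18r1 (ENSMUSG00000026070, chromosome 1) was at 9.81, 118 and 101 in knockout S5, S6 and S7, against 3.81, 3.75 and 30.3 in control S2, S3 and S4. Knockout S5 lay below control S4. The log2 fold change of 1.78 ± 0.80 (SE) did not pass the test (limma adjusted p = 0.235), and without knockout S5 it was 2.66 (adjusted p = 0.0464). Its partner Il18rap did not pass the filter and was at 6.86, 106 and 162 in knockout S5, S6 and S7, against 1.27, 5.00 and 12.6 in control S2, S3 and S4, low in the same knockout library. T cells are known to carry this receptor pair. The 7 T cell markers summed to 146, 934 and 1192 in knockout S5, S6 and S7 and to 73.7, 52.5 and 357 in control S2, S3 and S4, and their part in Il18r1 was not tested.

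Per kilobase of exon, the order of mean levels in the knockouts was Il1r1 (842 units), Il1r2 (283), Il1rap (167), Il1b (121), Casp1 (121), Il18bp (50.4), Il18r1 (15.9), Il1rn (14.1), Il18 (12.3) and Il1a (5.72). In the controls the order was Il1r2 (1641 units), Il1r1 (470), Casp1 (216), Il1rap (199), Il18bp (74.9), Il18 (56.9), Il1b (range 5.89 to 44.1), Il18r1 (2.62), Il1rn (1.95) and Il1a (0.284). Il1r1 led in the knockouts and Il1r2 in the controls, each without overlap with the next gene. In the knockouts Il1b ranged from 44.2 to 241 units per kilobase and so overlapped Il1r2, Il1rap, Casp1 and Il18bp. Il18r1, Il1rn, Il18 and Il1a also overlapped among themselves there. In the controls Casp1 and Il1rap overlapped, at 195 to 244 and 95.8 to 307, as did Il18bp and Il18, and neighbours from Il1b down to Il1a.

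The pathway around the family was examined through a list of 82 other genes, of which 75 were measured and 59 tested. The list was written with earlier results of these data known, so its called share is a description and tests nothing. Of the 59, 8 rose and 0 fell, or 13.6% beside the 6.71% called over all genes. The median log2 fold change of the list was 0.27, beside 0.014 over all tested genes. Without knockout S6, knockout S7, control S2 or control S3, 4 list genes were called in each fit, and 14 were called (all higher) after rescaling to a common total. The calls lay mainly among genes that interleukin-1 is known to induce: of 12 tested, 5 rose, namely Saa3, Lcn2, Cxcl5, Cxcl2 and Sod2. Saa3, an acute phase gene, was at 2058, 2015 and 3727 in knockout S5, S6 and S7, against 5.08, 1.25 and 1.68 in control S2, S3 and S4 (log2 fold change 7.74 ± 0.29 SE; limma adjusted p = 4.14e-05). Lcn2, the lipocalin gene, had a log2 fold change of 5.34, the chemokine gene Cxcl5 of 4.33 and the chemokine gene Cxcl2 of 1.95 (limma adjusted p = 0.000661, 0.00283 and 0.0349). Sod2, the mitochondrial superoxide dismutase gene, was at 2751, 3198 and 2368 in knockout S5, S6 and S7, against 1045, 1419 and 914 in control S2, S3 and S4 (log2 fold change 1.31 ± 0.21 SE; limma adjusted p = 0.0133). Other genes of this class did not pass the test: Il6 was at 590 to 3070 in the knockouts and 542 to 2140 in the controls, and Cxcl1 at 1396 to 3902 in the knockouts and 1531 to 4075 in the controls. Many other signals also induce these genes.

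Between receptor and target the list showed no called gene. Over all tested genes 6.71% were called, so 0 in classes of this size is near that share. Of 14 adaptor and kinase genes tested, 0 passed (median log2 fold change 0.16), with Tab2 at 0.18 ± 0.14 and Irak1 at 0.14 ± 0.17 (SE; limma adjusted p = 0.491 and 0.649). The groups did not overlap for 4 of these 14 genes, beside 28.8% of all tested genes. Of 15 NF-kappa B and MAP kinase genes, 0 passed (median 0.19). The groups did not overlap for 6 of the 15, beside 28.8% of all tested genes. Of these 6, named after their values were seen, Tnfaip3, Relb and Nfkbib had log2 fold changes of 1.14, 0.62 and 0.62, and Mapk9, Ikbkg and Chuk of -0.47, -0.41 and -0.082. Tnfaip3, a feedback inhibitor gene, averaged 7025 in the knockouts and 3225 in the controls (limma adjusted p = 0.0991). Nfkbia, the feedback inhibitor of NF-kappa B, averaged 5662 ± 1805 in the knockouts and 5785 ± 2711 in the controls (SD, n = 3 each), and Nfkbiz, a nuclear cofactor, 6438 ± 2368 in the knockouts and 4217 ± 1131 in the controls. Beside the 6.71% called over all genes, 1 of 11 tested inflammasome and pyroptosis genes (9.09%) rose. This was Casp8, the initiator caspase gene of death receptors, at 334, 305 and 358 in knockout S5, S6 and S7, against 170, 175 and 183 in control S2, S3 and S4 (log2 fold change 0.88 ± 0.16 SE; limma adjusted p = 0.0238), the opposite direction from Casp1. Pycard, which encodes the adaptor that recruits caspase-1 and which was picked out once its values were known, stood at 228, 398 and 276 in knockout S5, S6 and S7, against 812, 502 and 592 in control S2, S3 and S4, and just missed the threshold (log2 fold change -1.06 ± 0.26 SE; limma adjusted p = 0.0560).

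Beside the 6.71% called over all genes, 0 of the 4 other processing proteases tested passed. Among these the calpain genes Capn2 and Capn1, whose products process interleukin-1 alpha, had log2 fold changes of -0.33 and -0.12 (limma adjusted p = 0.428 and 0.768). Among other ligands of the family, 1 was tested and rose: the alarmin gene Il33 averaged 910 ± 303 in the knockouts and 292 ± 73.4 in the controls (SD, n = 3 each; limma adjusted p = 0.0219). The interleukin-36 gene Il36g did not pass the filter. It was at 6.86, 10.03 and 54.9 in knockout S5, S6 and S7, against 0, 0 and 2.52 in control S2, S3 and S4.

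For each called member, the genes with the most similar profile were found among 10675 genes, by the root mean square difference of centred log2 values over the 6 libraries. Closest to Il1r2 were Pycr1 (0.18), Abcc4 (0.19) and Sparc (0.21), the last a matrix glycoprotein gene at 70311 to 93625 in the knockouts and 275783 to 707732 in the controls. Closest to Il1r1 were Chsy1 (0.062), Svep1 (0.072) and Hdac5 (0.097). Closest to Il18 were Prokr1 (0.13), Timp3 (0.17) and Tril (0.17), and closest to Casp1 were Fam177a2 (0.072), Tbc1d32 (0.078) and Pigg (0.080). Timp3, a metalloproteinase inhibitor gene, was at 3194 to 4933 in the knockouts and 11243 to 17655 in the controls, far more abundant than Il18. Its likeness to Il18 was measured on the log2 scale of the test, which understates changes of low genes. On plain values Il18 was at 5.47 to 20.6 in the knockouts, from 6 to 21 reads, a wider relative spread than that of Timp3.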

How the data were processed

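The authors deposited 1 table of normalized counts for 6 libraries of sorted mouse skin cells. TopHat2 2.1.0 and Partek 9.0.20.0202 appear in the submitters' processing notes with no role; build and annotation: not given in the sources used here. Per the file headers the values are normalized counts, treated as a signal. In each library 78.7% to 81.2% of values up to 1000 reads were whole multiples (tolerance 0.05) of 1 step, whose reciprocal matched the median-of-ratios size factor, so reads are estimates and no count model was run. Columns carry a group name but cannot be tied to 1 numbered sample. Separate mice are not stated, and the p-values then measure only the spread between these libraries, possibly technical.

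Knockout was compared with control by limma 3.58.1 in R 4.3.3 (intensity trend, 2-sided, Benjamini-Hochberg) on log2(value + 9.15). Here 9.15 is 0.5 per 1000000 of an average library's total. The fit covered 15935 genes at 1 per 1000000 or more in at least 3 libraries. It was also run on simulated data with the same dispersion for every gene, which cannot tell how it performs at the spread of these libraries. Leaving out a library kept the tested genes fixed. Balances used exact permutation tests. Exon lengths came from GENCODE M21, matched by gene ID, and count every annotated isoform. All 10 members, the pathway list and the marker lists were chosen with earlier results of these data known. Text names all members, called pathway genes, or the 2 highest of a class with none called, and the 3 genes nearest in profile to each called member (at least 5 per 1000000, no predicted genes); others were named after their values were seen.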

Additional observations from a re-analysis of the deposited data

How the results depend on the processing

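Il1r2 kept its direction and its call under all 8 settings that used all 6 libraries, and lost the call only without knockout S6; its log2 fold change was -2.84 to -2.17 when 1 library was left out. Casp1 stayed lower but missed the threshold with no filter on low values (-0.81, adjusted p = 0.0578), without the variance trend (-0.81, 0.0563) and rescaled to a common library total (-0.50, 0.253). Leaving out 1 library gave -0.89 to -0.72. Il1r1 missed the threshold without the variance trend (0.84, adjusted p = 0.0571) and gave 0.75 to 0.96 with 1 library left out. Rescaling, which moved the median gene up by 0.31 on the log2 scale, put Il1r1 at 1.17 (limma adjusted p = 0.00542). Il18 missed the threshold after rescaling (-1.48, 0.0662) and gave -1.94 to -1.43 with 1 library left out. Il1b passed with array quality weights (2.29, adjusted p = 0.0405) and gave 1.69 to 2.99 with 1 library left out. Il18r1 gave 1.29 to 2.66, and Il1rap changed sign after rescaling (0.21) and gave -0.56 to 0.28. The ratio of Il1rn to its agonists also changed sign, at -0.26 with 5 units added. The cause of these changes was not tested.

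The whole-table count was 1997 with array quality weights and 337 to 1285 with 1 library left out, and 78.9% of the 1340 called genes were higher after rescaling, against 61.4% of 1070 as deposited. The pathway list count was 14 after rescaling and 4 to 8 with 1 library left out. No paired analysis was possible because the numbers in the column names match no numbered sample. Il1a and the low Il18 values in the knockouts are limited by read number, and groups of 3 libraries limit every test.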
